A study of Mus musculus with 6 samples.

Results

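The cytosolic nucleic acid sensors were a set of 10 genes, *Ddx58*, *Ifih1*, *Dhx58*, *Mavs*, *Trim25*, *Eif2ak2*, *Adar*, *Tmem173*, *Tbk1* and *Trex1*, picked by gene symbol out of the 55335 genes of the table. All 10 were found and all 10 lay above the filter on low values, a mean of 0.5 FPKM over the libraries (fragments per kilobase of transcript, relative to library size). The RNA came from bone marrow-derived macrophages (BMDMs), grown from the marrow of wild-type mice in 25 ng/ml M-CSF for 7 days. They were then cultured for 24 h together with neutrophils that had been taken by magnetic sorting from the spinal cord lesion at 3 days post injury (dpi). In 3 libraries the neutrophils came from *Cd177* WT mice and in the other 3 from *Cd177* knockout mice (*Cd177* KO). These groups are called WT and KO here. In both groups the sequenced macrophages carried the WT genotype and were sorted as Ly6G- cells before RNA extraction. The study's methods give only male animals and adult C57BL/6 mice, but name no strain for the *Cd177* knockout mice. There was no library of BMDMs cultured alone, so a level in WT or KO cannot be set against macrophages that met no neutrophils. Neither the labels nor the methods say whether the 3 libraries of a group came from separate cultures or animals, so the p-values measure only the spread between these samples, which may be technical.

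Cytosolic sensors detect RNA or DNA where it does not normally occur. The RIG-I-like receptors RIG-I (*Ddx58*), MDA5 (*Ifih1*) and LGP2 (*Dhx58*) are RNA helicases that bind viral or misplaced self RNA. RIG-I and MDA5 pass the signal to MAVS on the mitochondrial surface. DNA in the cytosol is read by cGAS, whose cyclic dinucleotide product activates STING (*Tmem173*) on the endoplasmic reticulum. Both routes meet at the kinase TBK1, which phosphorylates IRF3 and so starts type I interferon transcription, and many of the sensors are themselves interferon-induced genes in macrophages.

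The regulatory sequence in front of the members is shown first, because several of them are known as interferon-induced genes. RefSeq promoter windows, from 250 bases before to 50 bases after a transcription start (GRCm38.p6), were at hand for 8 of the 10 members, and for *Dhx58* and *Tmem173* none was printed. They were searched on both strands for GAAANNGAA, the core of the interferon-stimulated response element (ISRE), and for TTCNNNGAA, the core of the gamma-activated site (GAS). N stands for any base, and matches of either motif may overlap each other. The windows that held an ISRE core are printed 5′ to 3′ on the strand of the gene with the matched bases in capitals, followed by that of *Mavs*, which held no match. The intervals are chr4:40239776-40240075 on the minus strand for *Ddx58*, chr2:62646206-62646505 on the minus strand for *Ifih1*, chr11:88999153-88999452 on the plus strand for *Trim25*, chr17:78882523-78882822 on the minus strand for *Eif2ak2*, chr3:89730468-89730767 on the plus strand for start 3 of *Adar*, and chr2:131233813-131234112 on the plus strand for *Mavs*.
Ddx58: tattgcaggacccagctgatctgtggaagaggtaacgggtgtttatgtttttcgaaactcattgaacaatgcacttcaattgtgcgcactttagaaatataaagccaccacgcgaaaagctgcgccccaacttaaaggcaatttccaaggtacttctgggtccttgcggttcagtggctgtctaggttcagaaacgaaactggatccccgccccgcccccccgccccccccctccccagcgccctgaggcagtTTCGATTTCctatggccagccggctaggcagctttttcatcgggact
Ifih1: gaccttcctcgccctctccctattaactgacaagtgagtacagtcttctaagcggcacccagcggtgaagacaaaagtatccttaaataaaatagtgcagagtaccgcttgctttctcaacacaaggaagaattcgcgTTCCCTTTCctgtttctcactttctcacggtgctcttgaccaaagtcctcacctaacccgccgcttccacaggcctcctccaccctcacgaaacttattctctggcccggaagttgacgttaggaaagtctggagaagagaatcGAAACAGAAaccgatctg
Trim25: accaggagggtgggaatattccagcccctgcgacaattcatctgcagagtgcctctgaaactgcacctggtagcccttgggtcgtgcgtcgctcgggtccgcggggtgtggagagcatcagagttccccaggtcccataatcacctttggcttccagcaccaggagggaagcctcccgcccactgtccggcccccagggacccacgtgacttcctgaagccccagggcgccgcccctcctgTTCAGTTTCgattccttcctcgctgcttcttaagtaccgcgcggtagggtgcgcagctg
Eif2ak2: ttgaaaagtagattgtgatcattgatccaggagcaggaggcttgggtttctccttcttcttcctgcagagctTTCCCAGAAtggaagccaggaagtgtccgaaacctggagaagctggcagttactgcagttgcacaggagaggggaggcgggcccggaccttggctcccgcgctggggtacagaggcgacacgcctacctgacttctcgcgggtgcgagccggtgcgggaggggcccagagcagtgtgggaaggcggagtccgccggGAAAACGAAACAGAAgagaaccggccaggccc
Adar start 3: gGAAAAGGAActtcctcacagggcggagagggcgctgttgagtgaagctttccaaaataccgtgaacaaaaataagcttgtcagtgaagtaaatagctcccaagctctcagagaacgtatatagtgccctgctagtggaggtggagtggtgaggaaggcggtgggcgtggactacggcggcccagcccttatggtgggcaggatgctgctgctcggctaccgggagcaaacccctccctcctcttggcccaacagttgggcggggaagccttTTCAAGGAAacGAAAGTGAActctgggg
Mavs: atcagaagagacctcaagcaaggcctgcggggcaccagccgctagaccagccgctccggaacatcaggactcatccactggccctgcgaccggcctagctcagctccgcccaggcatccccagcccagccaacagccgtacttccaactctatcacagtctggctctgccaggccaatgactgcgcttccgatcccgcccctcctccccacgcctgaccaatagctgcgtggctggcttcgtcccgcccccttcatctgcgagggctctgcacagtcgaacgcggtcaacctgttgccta

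An ISRE core lay in the windows of 5 of the 6 members that had a window and passed the test as lower in KO, namely *Ddx58*, *Ifih1*, *Trim25*, *Eif2ak2* and *Adar*. The sixth, *Trex1*, held none in the windows of its 2 annotated starts. *Mavs* and *Tbk1* held none either. Counted from the first base of the RefSeq transcript as 1, the match in *Ddx58* covered transcript bases 4 to 12 on the opposite strand. That in *Trim25* covered the 9 bases directly before the RefSeq start, also on the opposite strand. In the GENCODE M21 annotation the *Trim25* gene begins upstream of this match, at 88999376. *Ifih1* had a match from 112 to 104 bases before the start on the opposite strand and another at transcript bases 33 to 41. *Eif2ak2* had a pair of overlapping matches at transcript bases 19 to 27 and 25 to 33, and a GAS core from 178 to 170 bases before the start. Start 3 of *Adar* had ISRE cores from 249 to 241 bases before the start and at transcript bases 34 to 42, with a GAS core at bases 23 to 31, while its other 2 starts had no match. Of all 32851 RefSeq windows, 8.56% held an ISRE core and 8.30% a GAS core, and of the 27025 genes they belong to, 9.76% and 9.55% had a match in any window. A match describes the letters of the window and does not show binding, and a window without a match says nothing about the factor.

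**Figure D1:**
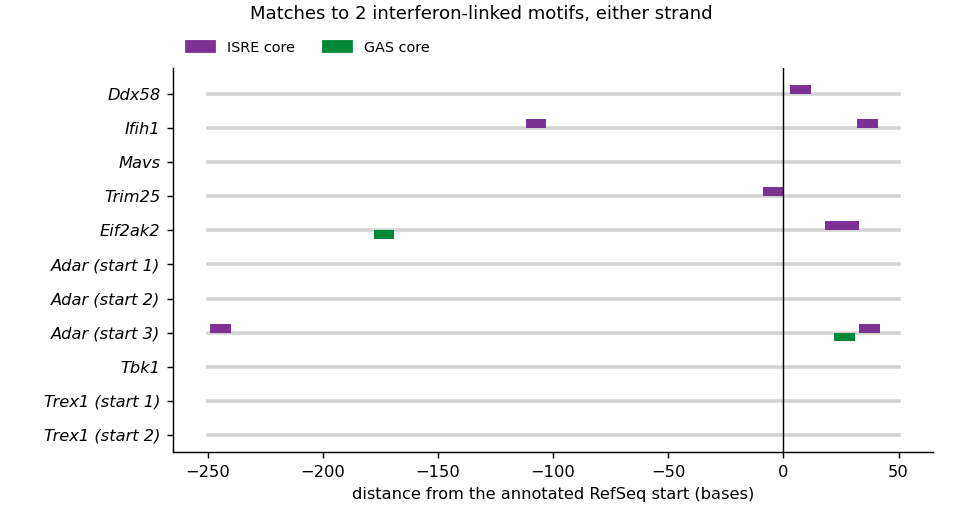
Positions of ISRE core and GAS core matches in the promoter windows of the members, plotted as the distance in bases from the transcription start (x axis), with 1 line per annotated start (y axis). Matches are found in *Ddx58*, *Ifih1*, *Trim25*, *Eif2ak2* and start 3 of *Adar*, and most lie within 50 bases of the start.

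The depth implied by the smallest steps of the FPKM values, an estimate, was 17617875 to 20287856 fragments per library. *Cd177* itself was at 0.544, 0.309 and 0.521 FPKM in WT and at 1.79, 1.84 and 2.28 FPKM in KO. The knockout was a feature of the neutrophils and not of the BMDMs, so *Cd177* is no check on the macrophages' own genotype. Its direction was nonetheless the reverse of what the labels name, and each direction given here is between the libraries as labelled. All 10 macrophage markers were above the filter in these libraries. *Csf1r*, the receptor of M-CSF, was at 232 to 284 FPKM in WT and 268 to 293 FPKM in KO, and *Adgre1* (F4/80) was at 218 to 256 and 279 to 309 FPKM, while *Cd14* was 10.2-fold, *Marco* 6.58-fold and *Fcgr1* 3.59-fold lower in KO. Among the 13367 genes that passed the filter, the median log2 fold change (KO minus WT) was 0.19, and scaling the libraries by the median of ratios moved it to -0.01.

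Across the 10 sensors, 7 were lower in KO at an adjusted p under 0.05 from limma with Benjamini-Hochberg adjustment over all tested genes, 1 was higher and 2 passed in neither direction. Of all tested genes, 10.5% were lower and 27.1% higher by the same rule. Scaled by the median of ratios, 8 sensors were lower and 0 higher by limma (0 also at an unadjusted p under 0.05), and over all tested genes the split moved from 1408 lower and 3619 higher to 2259 lower and 2057 higher. All 7 sensors that fell did so by more than 2-fold, against 4.32% of all tested genes. The KO values lay wholly below the WT values for 8 sensors and wholly above them for 1, where 14.4% and 37.5% of all tested genes did so. The median log2 fold change over the sensors was -1.54, and the FPKM of the 10 sensors summed to 266 to 278 in the WT libraries and to 104 to 115 in the KO libraries. Log2 fold changes, and the counts beyond 2-fold, refer to log2(FPKM + 0.5), which understates the change of low genes, whereas folds given for single genes are ratios of the mean FPKM. In bulk RNA, fewer cells of a kind and less RNA per cell cannot be told apart.

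**Figure D2:**
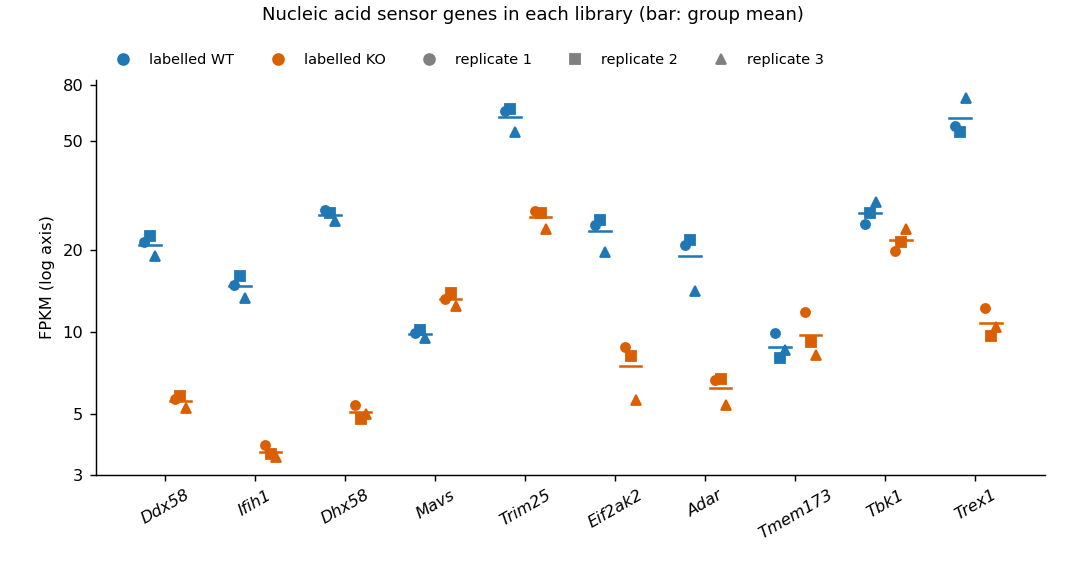
FPKM of the 10 sensors in each library (log axis), with 1 panel position per gene, points for the 3 WT and 3 KO libraries and bars at the group means. WT and KO points separate downwards for 8 genes, upwards for *Mavs*, and mix for *Tmem173*.

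The transcripts of the RIG-I family receptors fell together. *Ddx58* (ENSMUSG00000040296, chromosome 4 from 40203773 to 40239828, GENCODE M21) encodes RIG-I, which binds short RNA with a 5′ triphosphate. It was at 21.3, 22.4 and 19.0 FPKM in the WT libraries and at 5.69, 5.84 and 5.26 FPKM in the KO libraries. Every KO library lay well below every WT library, and the KO values were closely grouped. Means were 20.9 ± 1.76 and 5.60 ± 0.302 FPKM (SD, n = 3 each), a 3.74-fold difference (log2 fold change -1.81, standard error 0.097, adjusted p = 2.86e-05 from limma).

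*Ifih1* (ENSMUSG00000026896, chromosome 2 from 62595798 to 62646255) encodes MDA5, which binds long RNA duplexes. It was at 14.8, 16.0 and 13.3 FPKM in WT and at 3.87, 3.58 and 3.49 FPKM in KO. The groups were far apart, with means of 14.7 ± 1.36 and 3.65 ± 0.197 FPKM (SD, n = 3). They stood 4.03-fold apart (log2 fold change -1.87 with a standard error of 0.10, adjusted p = 2.96e-05 from limma), close to the value of *Ddx58*. *Dhx58* (ENSMUSG00000017830, chromosome 11 from 100694884 to 100704271) encodes LGP2, which lacks the signalling domains of the other receptors and modulates them. It fell further, from 27.9, 27.2 and 25.6 FPKM in WT to 5.42, 4.81 and 4.99 FPKM in KO. These groups did not overlap either, and the means of 26.9 ± 1.20 and 5.08 ± 0.309 FPKM (SD, n = 3) stood 5.30-fold apart (log2 fold change -2.30, standard error 0.086, adjusted p = 6.28e-06 from limma). The antisense gene *Dhx58os* shares 141 bases (4.31%) of its exons, and without a stated strand setting its reads cannot be told apart there.

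*Trim25* and *Mavs*, which act next to the receptors, moved in opposite directions. *Trim25* (ENSMUSG00000000275, chromosome 11 from 88999376 to 89020293), a ubiquitin ligase that promotes RIG-I signalling, was at 64.3, 65.4 and 54.2 FPKM in WT and at 27.8, 27.4 and 23.9 FPKM in KO. It was the sensor gene with the highest mean in both groups, and its groups did not overlap. The difference was 2.33-fold (log2 fold change -1.20, standard error 0.11, adjusted p = 0.000292 from limma), the smallest of the 7 that fell.

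*Mavs* (ENSMUSG00000037523, chromosome 2 from 131234063 to 131248025) encodes the adaptor to which RIG-I and MDA5 bind. It was at 9.91, 10.2 and 9.51 FPKM in WT and at 13.2, 13.9 and 12.5 FPKM in KO. Here each KO library lay above each WT library. The means of 9.86 ± 0.326 and 13.2 ± 0.676 FPKM (SD, n = 3) gave a log2 fold change of 0.40 (standard error 0.082, 95% interval 0.21 to 0.60, adjusted p = 0.00922 from limma). The call was lost under 2 of the 4 other scalings. Scaled by the median of ratios, the log2 fold change was 0.18 (adjusted p = 0.124 from limma) and scaled by the upper quartile 0.20 (adjusted p = 0.103). It held with quantile normalization (0.31, adjusted p = 0.0255) and after rescaling to TPM (0.43, adjusted p = 0.0247).

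A ratio of 2 genes within a library cancels such scaling, except for the 0.5 FPKM added to each gene in the log2 ratios. The transcripts of the RIG-I receptor and its adaptor stood in reversed order in the groups. *Ddx58* divided by *Mavs*, both per length and with nothing added, was 2.15, 2.21 and 1.99 in the WT libraries and 0.430, 0.421 and 0.421 in the KO libraries. *Ddx58* thus exceeded *Mavs* in every WT library and was below it in every KO library. With 0.1 or 1 FPKM added, its log2 difference between the groups was -2.30 or -2.12. With 0.5 FPKM added it was -2.21 (exact permutation test over 6 libraries, two-sided, p = 0.1, which is the smallest p that 3 libraries against 3 allow, and 0.15 after Benjamini-Hochberg adjustment over 6 ratios). *Ifih1* to *Mavs* behaved alike, with mean log2 ratios of 0.55 ± 0.085 in WT and -1.72 ± 0.081 in KO (SD, n = 3, exact permutation p = 0.1, adjusted 0.15). *Dhx58* to *Ddx58* was 0.36 ± 0.075 in WT and -0.13 ± 0.11 in KO (exact permutation p = 0.1, adjusted 0.15), a difference of -0.49 on the log2 scale with no overlap between the groups.

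**Figure D3:**
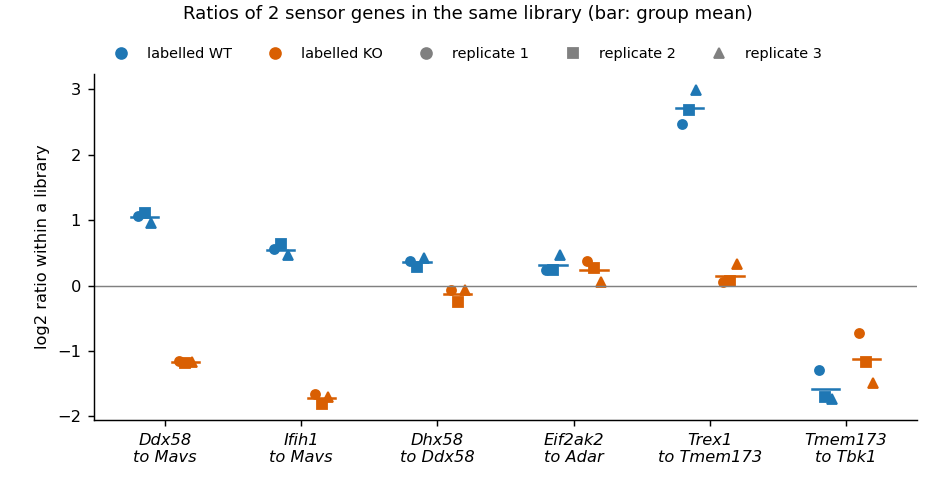
Log2 ratios of 6 pairs of sensors within each library (y axis), with the pairs along the x axis, points for the 3 WT and 3 KO libraries and bars at the group means. *Ddx58* to *Mavs*, *Ifih1* to *Mavs* and *Trex1* to *Tmem173* separate by more than 2 log2 units, *Dhx58* to *Ddx58* separates by less, and the other 2 ratios overlap between the groups.

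The sensors *Eif2ak2* and *Adar*, whose proteins act on RNA duplexes, also had lower transcript levels in KO. *Eif2ak2* (ENSMUSG00000024079, chromosome 17 from 78852564 to 78882573) encodes PKR, the kinase that halts translation by phosphorylating eIF2alpha when it binds RNA duplexes. It was at 24.7, 25.6 and 19.7 FPKM in WT and at 8.78, 8.19 and 5.62 FPKM in KO. The groups did not overlap, although the library numbered 3 was the lowest in each. The means of 23.3 ± 3.19 and 7.53 ± 1.68 FPKM (SD, n = 3) stood 3.10-fold apart (log2 fold change -1.58, standard error 0.18, adjusted p = 0.000830 from limma).

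*Adar* (ENSMUSG00000027951, chromosome 3 from 89715022 to 89753446) encodes ADAR1, which edits adenosine to inosine in RNA duplexes and so keeps self RNA from being sensed. It was at 20.9, 21.8 and 14.1 FPKM in WT and at 6.65, 6.73 and 5.40 FPKM in KO. The WT spread came from replicate 3, and the groups still did not overlap. The difference was 3.03-fold (log2 fold change -1.51, standard error 0.18, adjusted p = 0.000987 from limma). *Chrnb2* on the opposite strand shares 1365 (16.8%) of the exon bases of *Adar*, but its mean was 0.308 FPKM in WT and 0.198 FPKM in KO. *Eif2ak2* and *Adar* kept nearly the same proportion. Their log2 ratio was 0.31 ± 0.14 in WT and 0.23 ± 0.16 in KO (SD, n = 3), a difference of -0.08 that was within the spread (exact permutation p = 0.6, adjusted 0.6).

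In the DNA-sensing branch the adaptor and the kinase differed from the nuclease. *Trex1* (ENSMUSG00000049734, chromosome 9 from 109057933 to 109059734) encodes the exonuclease that degrades cytosolic DNA before cGAS can bind it. It was at 56.8, 54.1 and 72.0 FPKM in WT and at 12.2, 9.67 and 10.5 FPKM in KO. The groups did not overlap and stood 5.65-fold apart (log2 fold change -2.44, standard error 0.14, adjusted p = 3.85e-05 from limma). Its place next to *Dhx58* depended on WT replicate 3, without which the log2 fold changes were -2.31 for *Trex1* and -2.33 for *Dhx58*. All 1147 exon bases of *Trex1* lie within exons of *Atrip* on the same strand, so that reads may be split between them. *Atrip* was lower in KO as well, at 4.19, 4.57 and 4.58 FPKM in WT and 2.38, 2.68 and 2.38 FPKM in KO (log2 fold change -0.73, adjusted p = 0.00156 from limma).

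*Tmem173* (ENSMUSG00000024349, chromosome 18 from 35733679 to 35740554) encodes STING. It was at 9.89, 8.01 and 8.62 FPKM in WT and at 11.8, 9.19 and 8.21 FPKM in KO. The groups overlapped. The means of 8.84 ± 0.957 and 9.74 ± 1.87 FPKM (SD, n = 3) did not differ beyond the spread (log2 fold change 0.12, 95% interval -0.24 to 0.48, adjusted p = 0.559 from limma), and the sign depended on the scaling. *Trex1* divided by *Tmem173* was 5.75, 6.75 and 8.35 in the WT libraries and 1.04, 1.05 and 1.27 in the KO libraries. The *Trex1* transcript was thus several times the level of the *Tmem173* transcript per length in WT and about equal to it in KO. With 0.5 FPKM added to each, the log2 difference was -2.56 (exact permutation p = 0.1, adjusted 0.15).

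*Tbk1* (ENSMUSG00000020115, chromosome 10 from 121546455 to 121586787), the kinase shared by the MAVS and STING routes, was at 24.8, 27.3 and 29.8 FPKM in WT and at 19.8, 21.3 and 23.9 FPKM in KO. Each KO library lay below each WT library, by a narrow margin between the highest KO and the lowest WT value. The means of 27.3 ± 2.50 and 21.7 ± 2.05 FPKM (SD, n = 3) gave a log2 fold change of -0.33 (standard error 0.11, 95% interval -0.58 to -0.07), which narrowly missed the threshold (adjusted p = 0.0514 from limma). It passed when scaled by the median of ratios (-0.55, adjusted p = 0.0140) or by the upper quartile (-0.54, adjusted p = 0.0188). *Tmem173* to *Tbk1* had mean log2 ratios of -1.58 ± 0.25 in WT and -1.13 ± 0.38 in KO, with overlap between the groups (SD, n = 3, exact permutation p = 0.2, adjusted 0.24).

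**Figure D4:**
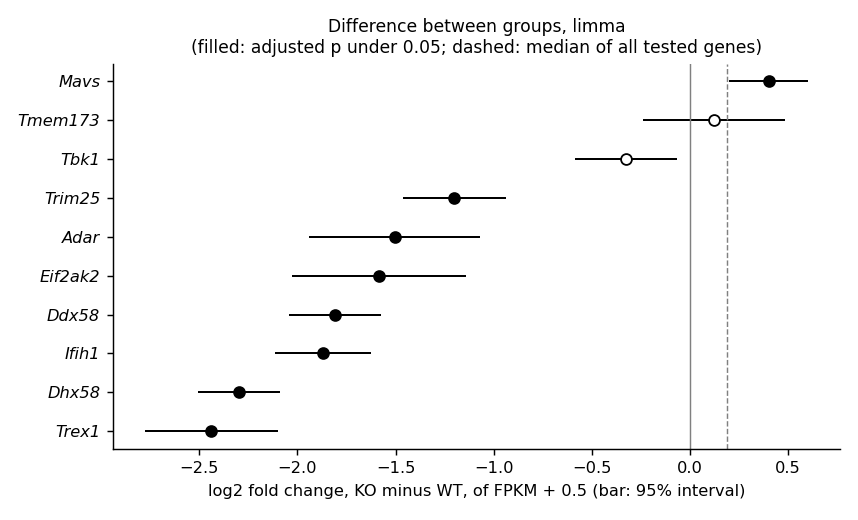
Log2 fold change (KO minus WT, of FPKM + 0.5) of each sensor with its 95% interval from limma (x axis), and genes on the y axis. The intervals of the 7 genes that fell all end at or below -0.94, that of *Mavs* lies above the dashed median of all tested genes (0.19), that of *Tmem173* spans 0 and that of *Tbk1* ends just below 0.

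The order of the levels per length changed between the groups. In WT the highest were *Trim25* and *Trex1*, whose values overlapped. They were followed by *Tbk1*, *Dhx58*, *Eif2ak2*, *Ddx58*, *Adar* and *Ifih1*, in which each gene overlapped with the next. *Mavs* and *Tmem173*, which overlapped with each other, came last and lay below every WT value of *Ifih1*. In KO, *Trim25* again came first, with *Tbk1* just under it. *Mavs* moved from the ninth place to the third, and *Trex1*, *Tmem173*, *Eif2ak2*, *Adar*, *Ddx58*, *Dhx58* and *Ifih1* followed. *Trex1* to *Dhx58* formed a chain in which each gene overlapped with the next, while the highest KO value of *Trex1* (12.2 FPKM) was below the lowest of *Mavs* (12.5 FPKM) and *Ifih1* lay below all others. The signal adaptors and kinase of both branches thus stood at the bottom of the WT order, *Tbk1* excepted, and above the 3 receptors in KO.

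By centred profile, with Euclidean distance over the 6 libraries on the log2(FPKM + 0.5) scale, *Ddx58* and *Ifih1* were the closest pair of sensors (distance 0.124), and *Mavs* and *Trex1* the farthest (3.51). *Eif2ak2* and *Adar* were 0.316 apart and *Dhx58* and *Trex1* 0.446. Among all tested genes that were not sensors, the 5 nearest to the mean profile of the 3 RIG-I-like receptors were *Slc15a3* (0.0677), *Ptges* (0.0811), *Parp12* (0.0841), *Hk3* (0.129) and *Clmp* (0.130). *Slc15a3* is an endolysosomal peptide transporter, *Ptges* makes prostaglandin E2 and *Hk3* is a hexokinase of myeloid cells. *Slc15a3*, at 172 to 190 FPKM in WT and 41.8 to 47.2 FPKM in KO, was far more abundant per length than the receptors, with a log2 fold change of -2.02. The 5 nearest to *Mavs* were *Supt7l*, *Trp53inp2*, *Scyl2*, *Pick1* and *Eml3*, at distances of 0.0631 to 0.0702.

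Beyond the 10 sensors, 70 genes of the pathway in 5 groups were listed by function, and 67 of them passed the filter. Of these, 16 were lower in KO at an adjusted p under 0.05 (limma), 10 higher and 41 neither, with a median log2 fold change of -0.05. These were 23.9% lower and 14.9% higher, beside 10.5% and 27.1% of all tested genes and their median of 0.19. The split depended on scaling, with 25 lower and 3 higher under median-of-ratios and under upper-quartile scaling. Of all tested genes, 16.9% were lower and 15.4% higher under the first, and 16.1% and 15.9% under the second. The number higher also changed when a library was left out, to 4 without WT replicate 1, KO replicate 1 or KO replicate 3 and to 2 without KO replicate 2. In the same order, the share of all tested genes that were higher also fell, to 20.6%, 18.2%, 21.3% and 18.2%. Of the 67, 8 (11.9%) fell by more than 2-fold, where 4.32% of all tested genes and 7 of the 10 sensors did.

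Among cofactors of RNA sensing and RNA helicases, 4 of 17 tested were lower (23.5%) and 6 higher (35.3%), beside 10.5% and 27.1% of all tested genes. *Nlrc5*, a NOD-like receptor that drives MHC class I transcription and also modulates RIG-I signalling, was at 16.8, 17.8 and 10.4 FPKM in WT and 2.27, 2.69 and 1.74 FPKM in KO (log2 fold change -2.48, adjusted p = 0.000315 from limma). *Znfx1*, a mitochondrial helicase that binds viral RNA, had a log2 fold change of -1.93 and *Ddx60*, a helicase linked to RIG-I signalling, of -1.43. *Rnf135*, the ligase RIPLET that acts on RIG-I, had the smallest log2 fold change of the group (-0.04, adjusted p = 0.827). *Prkra* (PACT), a protein activator of PKR, went the other way, from 4.42, 4.47 and 4.74 FPKM in WT to 11.3, 11.3 and 12.5 FPKM in KO (log2 fold change 1.27, adjusted p = 9.13e-05 from limma), and it was named after its values were seen.

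In the DNA-sensing and STING group, 3 of 15 were lower (20%) and 2 higher (13.3%), beside 10.5% and 27.1% of all tested genes. *Zbp1*, a sensor of Z-form nucleic acid, was at 37.8, 36.3 and 38.7 FPKM in WT and at 1.50, 1.77 and 1.38 FPKM in KO, and *Usp18*, the ISG15 protease that also restrains interferon receptor signalling, was at 30.7, 29.8 and 34.2 FPKM and 1.23, 0.980 and 0.934 FPKM. These were larger falls than that of any of the 10 sensors, with log2 fold changes of -4.22 (adjusted p = 1.68e-06 from limma) and -4.37 (adjusted p = 1.86e-06). *Surf4*, a retrieval receptor that returns STING to the endoplasmic reticulum, fell by 0.72 on the log2 scale. *Aim2*, the inflammasome DNA sensor, had the smallest log2 fold change (-0.07, adjusted p = 0.651). *Cgas*, added to the named genes because it is the sensor upstream of STING, was at 4.55, 2.41 and 1.96 FPKM in WT and 2.41, 2.67 and 2.09 FPKM in KO, with overlapping groups (log2 fold change -0.20, 95% interval -0.83 to 0.43, adjusted p = 0.592 from limma).

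Downstream of the sensors, 3 of 15 kinases, adaptors and transcription factors were lower (20%) and 2 higher (13.3%). Of all tested genes, 10.5% were lower and 27.1% higher. *Irf7*, the interferon-induced factor that amplifies interferon transcription, was at 40.5, 41.6 and 41.9 FPKM in WT and at 2.55, 2.74 and 2.19 FPKM in KO (log2 fold change -3.81, adjusted p = 1.86e-06 from limma). *Irf3*, the constitutive factor that TBK1 phosphorylates, was at 8.49, 7.16 and 7.80 FPKM and 9.02, 8.52 and 7.47 FPKM, and did not pass the test (log2 fold change 0.09, 95% interval -0.17 to 0.35, adjusted p = 0.569). It too was added because of its place in the pathway. *Azi2* (NAP1), an adaptor of TBK1, fell by 1.07, and *Ikbke*, the kinase related to TBK1, rose by 0.40 on the log2 scale (adjusted p = 0.0451). *Optn*, which also binds TBK1, had the smallest value (0.03).

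Of the nucleases and RNA turnover genes, 3 of 12 tested were lower (25%) and 0 higher by limma (1 higher at an unadjusted p under 0.05). Of all tested genes, 10.5% were lower and 27.1% higher. *Isg20*, an interferon-induced exonuclease, fell by 1.29 on the log2 scale, *Samhd1*, the dNTP hydrolase, by 0.95 and *Pnpt1*, the mitochondrial polynucleotide phosphorylase, by 0.57. *Rnaseh2a*, the catalytic subunit of RNase H2, had a mean of 4.81 FPKM in each group. Of the 8 genes of the eIF2alpha kinases and their pathway, 3 were lower (37.5%) and 0 higher (1 higher at an unadjusted p under 0.05). These were *Dnajc3* (p58IPK), an inhibitor of PKR and PERK, which fell by 0.75, and the regulatory subunits of the eIF2alpha phosphatase *Ppp1r15a* (0.46) and *Ppp1r15b* (0.38). The haem-regulated kinase *Eif2ak1* had the value nearest 0 (0.04, adjusted p = 0.787 from limma), while the PKR transcript, *Eif2ak2*, fell 3.10-fold as given above.

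**Figure D5:**
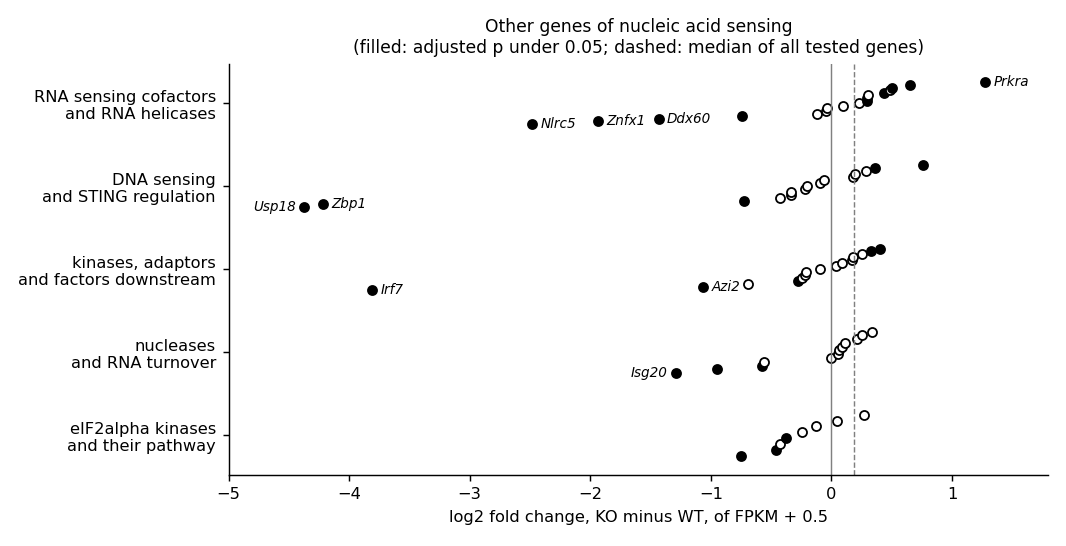
Log2 fold change (KO minus WT, of FPKM + 0.5, x axis) of the tested genes of the 5 pathway groups (y axis), 1 point per gene, filled where the adjusted p from limma is under 0.05, with the median of all tested genes dashed. Most points lie near 0, and the farthest to the left are *Usp18*, *Zbp1* and *Irf7*.

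Markers of other cells differed between the groups as well. Of 16 neutrophil markers 12 were tested, of which 10 were higher in KO and *Mmp8* was lower, and the sum of all 16 was 195 to 256 FPKM in WT and 542 to 556 FPKM in KO. *Ly6g*, the marker used for the sort, was listed at 0 in the WT libraries and at 0.660, 0.547 and 0.403 FPKM in the KO libraries. Macrophage markers were all tested, with 3 lower in KO (*Cd14*, *Marco* and *Fcgr1*) and 2 higher, and they summed to 6749 to 8097 FPKM in WT and 7322 to 8008 FPKM in KO. Of 9 T, NK and B cell markers only *Ighm* passed the filter, with summed levels of 0.215 to 0.518 FPKM in WT and 9.66 to 10.6 FPKM in KO, and *Cd3d* was at 0 in every library. Of 6 dendritic cell markers only *Batf3* passed the filter and it was higher in KO, with sums of 0.924 to 1.66 and 1.66 to 1.75 FPKM, and *Flt3* was at 0 in every library. Under the filter, *Xcr1* (0.217, 0.218 and 0.376 against 0.0331, 0.0678 and 0.126 FPKM) and *Clec9a* (0.787, 0.735 and 0.10 against 0.0172, 0.0748 and 0.0659 FPKM) lay wholly lower in KO, and *Zbtb46* wholly higher. Of 8 spinal cord and microglia markers 3 were tested and *P2ry12* was higher in KO. The microglia marker *Tmem119* lay wholly lower in KO without passing the test, and *Mbp* overlapped between the groups. *Tmem119* was at 10.04 to 12.25 FPKM in WT and 8.098 to 9.548 FPKM in KO (log2 fold change -0.32, adjusted p = 0.0607 from limma). The sums were 15.6 to 18.2 FPKM in WT and 17.3 to 22.5 FPKM in KO, and *Snap25* was at 0 in every library. The part of these markers in the falls of the sensors was not tested.

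The libraries numbered 3 stood apart in both groups in relation to transcript length. Across 13361 genes, which are not independent replicates, the difference of library 3 from the mean of libraries 1 and 2 had a Spearman correlation with exon length of -0.44 in WT and -0.24 in KO. On that scale *Adar* was lower by 0.58 in WT library 3 and *Eif2ak2* lower by 0.55 in KO library 3, while *Trex1*, a short gene, was 0.37 higher in WT library 3. Not every sensor followed exon length. *Ifih1*, which has more exon bases than *Adar*, was lower by 0.21 in WT and 0.08 in KO. *Tbk1* was higher by 0.19 and 0.21, and in KO library 3 *Trex1* was lower by 0.05 and the short *Tmem173* by 0.33. With the libraries numbered 1 and 2 alone, 8 of the 10 sensors were lower in KO, *Tbk1* being the eighth, and 1 was higher, while the shares of all tested genes also rose, to 14.5% lower and 33.5% higher. Between libraries numbered 1, 2 and 3, WT divided by KO was 3.75, 3.84 and 3.61 for *Ddx58*, where it varied little. It varied more for *Trex1* (4.64, 5.59 and 6.88), *Eif2ak2* (2.81, 3.13 and 3.50) and *Adar* (3.15, 3.24 and 2.61).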

How the data were processed

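RNA-seq values of 6 BMDM libraries were analysed, 3 per group, with groups taken from the sample labels. The authors deposited FPKM per gene for 55335 mouse Ensembl identifiers, and the table's sample columns all matched a sample title. The submitters' processing notes name fastp 0.17.1, HISAT2 2.1.0, DESeq2 1.18.1 and R 3.4.3, while the counting tool, its strand setting, the genome build and the gene annotation are not given in the sources used here. Extraction reagent, library kit and sequencer differ between the labels and the study's methods. Symbols and positions came from GENCODE M21 (GRCm38), which held 55154 (99.7%) of the identifiers, and promoters from RefSeq (GRCm38.p6).

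FPKM is scaled to the total of each library, so a change in abundant genes shifts all others. The column sums ran from 302532 to 340717. Only 37.3% to 40.4% of low values came within 0.1 of a multiple of the smallest step, against 20.0% by chance. Whole fragments were therefore not recovered, and no count test was run, although the study's methods use DESeq2 on counts. The depth implied by the step is an estimate.

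The 13367 genes whose mean reached 0.5 FPKM were tested on the scale log2(FPKM + 0.5) using limma 3.58.1 (lmFit, eBayes with trend, two-sided, no covariates) under R 4.3.3, with Benjamini-Hochberg adjustment over these genes and a threshold of 0.05. The script was tested on simulated data. The 6 ratios were compared by exact permutation. The alternatives were other pseudocounts, filters, scalings between libraries and variance estimates, a replicate block, the study's threshold and each library left out. Named were the 10 members, in each pathway group the 3 largest changes that passed and averaged 1 FPKM or more, and the smallest change, the 5 nearest profiles, and a few genes said to be added. Members and lists were chosen with earlier results of these data known. Figures were drawn with matplotlib 3.10.9 in Python 3.11.15.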

Additional observations from a re-analysis of the deposited data

How the results depend on the processing

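The 7 sensors that fell kept their direction and an adjusted p under 0.05 (limma) under each of the alternatives run, including with each library left out. The number of sensors higher in KO was 0 under median-of-ratios and upper-quartile scaling and at the study's threshold (fold above 2, unadjusted p under 0.05), and at an unadjusted p under 0.05 alone it was 0 and 1 under those scalings (limma). Pathway genes lower in KO numbered 25 with either of these scalings and 8 at the study's threshold. In these settings 16.9%, 16.1% and 4.43% of all tested genes were lower. Pathway genes higher in KO numbered 5 without a filter on low values and 4 at a mean of at least 5 FPKM. They numbered 3 with median-of-ratios, upper-quartile or quantile scaling and 5 after rescaling to TPM. At the study's threshold 1 was higher, and 2 to 10 were with a library left out. The share of all tested genes that were higher was 27.1% in the main test and 11.3% without a filter. At a mean of at least 5 FPKM it was 25.7%. With median-of-ratios, upper-quartile and quantile scaling the share was 15.4%, 15.9% and 18.1%. It was 26.01% after rescaling to TPM, 6.68% at the study's threshold and 18.2% to 31.6% with a library left out. *Tmem173* changed sign under the median of ratios (-0.095), the upper quartile (-0.081) and quantile normalization (-2.28e-05), and lay between -0.018 and 0.23 with a library left out, the negative value being that without KO replicate 1. *Tbk1* also passed after rescaling to TPM (adjusted p = 0.0358), with quantile normalization (0.0318), at a mean of at least 5 FPKM (0.0485) and without KO replicate 3 (0.0459). It did not pass with 0.1 or 1 FPKM added (0.0529 and 0.0509), with robust variance (0.0530) or without a filter (0.0855). Nor did it pass with any other library left out (adjusted p of 0.0551 to 0.173 from limma). The log2 ratio of *Eif2ak2* to *Adar* differed by -0.15 to 0.010 between the groups with a library left out, 0.010 without KO replicate 3. The libraries numbered 1 and 2 alone, an alternative chosen after seeing the data, gave 22 lower and 13 higher pathway genes. Of all tested genes, 14.5% were lower and 33.5% higher there. The cause of these shifts was not tested.

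The groups share replicate numbers, which no source ties to a common batch. Same-numbered libraries deviated together with correlations of 0.116, 0.036 and 0.264, and only the libraries numbered 3 correlated best with their own number. With a replicate block, 8 sensors were lower and 1 higher, *Tbk1* being added at -0.33 (adjusted p = 0.0137 from limma), and all tested genes split into 1681 lower and 4253 higher. It changed no other call among the sensors.

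The FPKM values carry no counts, so the precision of low genes such as *Cgas* could not be given beyond the spread of 3 libraries.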

Other observations

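Of the 70 pathway genes, 3 did not pass the filter on low values. *Rnf125*, a ligase that marks RIG-I for degradation, was at 0.0826 to 0.391 FPKM in WT and 0.369 to 0.931 FPKM in KO, with overlapping groups. *Dnase1l3*, an extracellular DNase, was at 0.0534 to 0.108 FPKM in WT and 0.0220 to 0.0685 FPKM in KO. *Trex2*, the paralogue of *Trex1*, was listed at 0 in all 6 libraries.

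*Atf4*, the transcription factor downstream of the eIF2alpha kinases, varied within the groups. It was at 51.7, 90.0 and 121 FPKM in the WT libraries and at 72.4, 71.0 and 44.6 FPKM in the KO libraries, and its log2 fold change of -0.43 had a 95% interval of -1.22 to 0.36 (adjusted p = 0.350 from limma).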
